A study of Arabidopsis thaliana with 12 samples.

Results

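Plastids of plant cells make several vitamins, amino acids and fatty acids that the rest of the cell uses. Such enzymes are encoded in the nucleus, translated in the cytosol and imported into the organelle, so their transcripts are measured with other nuclear transcripts. Thiamine, in its diphosphate form, is the cofactor of pyruvate dehydrogenase, transketolase and acetolactate synthase, folates carry one-carbon units, and acyl chains are built in the plastid on an acyl carrier protein. The 4 genes described here each stand for a separate one of these routes: THIC for thiamine, AT2G32040 for folate transport, AT3G58610 for branched-chain amino acids and FATB for the release of fatty acids.

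The genes were chosen by name with the measured log2 differences between prors2 and wild type in view, so they were selected on values of the same comparison that is described below. Each was measured by 1 probe that the platform annotation assigns to that gene alone. They are 4 of 691 genes with such a probe, on an array of 3439 probes. A further 1 probe lists FATB together with other thioesterase genes and was not used. The values of the comparison between mutant and wild type are therefore given as a description of these genes, without a test of them.

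Total RNA came from Arabidopsis thaliana plants kept dark overnight, 6 samples titled WT2_dark and 6 titled prors2_dark. The wild type is ecotype Columbia 0, and prors2, per the labels, is a mutant without prolyl-tRNA synthetase, which joins proline to its tRNA for protein synthesis. The sources used here give no tissue, plant age, allele or background of prors2, and the source label reads wild type for all 12 samples, so the grouping rests on the titles. No probe used here measures the synthetase gene, so the mutant label was not checked on it. The comparison asks which transcripts differ in dark-kept plants of the mutant.

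The values are deposited intensities in arbitrary units on a linear scale. The median intensity of a sample was between 0.0620 and 0.0852 in wild type and between 0.240 and 0.403 in prors2, and the number of probes listed at 0 between 746 and 926 and between 431 and 609. The brightest probes did not follow: the 99th percentile was 11.6 to 14.9 in wild type and 9.04 to 12.5 in prors2, and the summed intensities overlapped (2556 to 3032 and 2764 to 3404). The highest value was 100 in each of the 12 samples, shared by 5 to 6 probes in wild type and 2 to 3 in prors2. The deposited values are therefore limited at the top, and may be scaled to it, in a way the sources used here do not describe, so a fold on this scale may not be one of brightness. The groups thus differ in the dim and middle range, where the 4 genes lie, and the part of this in the values below was not tested. Numbers 3 and 4 stood apart in both groups, with 926 and 916 probes at 0 in wild type, where the other samples had 746 to 791, and 606 and 609 in prors2, where the others had 431 to 479. Of 10 green-tissue marker genes 2 had a probe (LHB1B2 and PRK), none of their values was 0, and their summed intensity was 39.5 to 45.8 in wild type and 16.1 to 30.7 in prors2. None of the 8 root, 8 seed and 7 flower or pollen markers had a single-gene probe. In bulk tissue, fewer cells of a type and less RNA per cell cannot be told apart.

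In prors2 the AT2G32040 probe had a higher deposited intensity than in wild type (0.882 ± 0.226 against 0.0495 ± 0.0290, SD, n = 6 each), and THIC had a lower mean, of 0.274 ± 0.160 against 0.411 ± 0.0313 (SD, n = 6 each). AT3G58610 and FATB had near mean intensities in both groups and were lower in prors2 only relative to the other probes. Because of the shift in the dim and middle range each gene is given on 2 scales. The first is the deposited intensity. The second is its position within its own sample, as the percentile of its probe among all 3439 probes. Any rescaling that keeps the order of values within a sample leaves this percentile as it is. Probes at 0 count at its low end, and they were 21.7 to 26.9% of the probes in wild type and 12.5 to 17.7% in prors2. The percentile is therefore not free of the shift in the dim range. Between the 2 scales stands the normalized log2 value, taken after the samples were brought to a common distribution (quantile normalization). Levels of different probes are not compared, since probes differ in how brightly they report.

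THIC (AT2G29630) encodes the plastid enzyme that makes the pyrimidine moiety of thiamine from a purine pathway intermediate, and its transcript is known for a riboswitch that senses thiamine diphosphate. Its deposited intensity in wild type had a lowest value of 0.372, a median of 0.408 and a highest value of 0.456. In prors2 the lowest was 0.0402, the median 0.288 and the highest 0.442. The 6 wild-type samples lay close together, while those of prors2 spread 11.0-fold from lowest to highest, and 4 of the 6 lay below all wild-type samples. Samples 1 and 2 of prors2, at 0.437 and 0.442, lay within the wild-type range.

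Within its sample the THIC probe stood at the 79.6th to 83.8th percentile in wild type, with a median of 81.6, and at the 21.5th to 54.7th in prors2, with a median of 42.0. The groups did not overlap on this scale. In normalized log2 intensity, wild type had -0.85 ± 0.0972 and prors2 had -3.15 ± 1.15 (SD, n = 6 each). The difference, prors2 minus wild type, was -2.30 (standard error, SE, 0.44), which is 4.93-fold. Sample 3 of prors2 had the lowest value, and without it the difference was -1.90.

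AT2G32040 encodes a member of the folate-biopterin transporter family, located in the plastid envelope, whose relative in the cyanobacterium Synechocystis carries folates. Its deposited intensity in wild type had a lowest value of 0.0137, a median of 0.0514 and a highest value of 0.0879. In prors2 the lowest was 0.724, the median 0.768 and the highest 1.28. The groups were apart, with the prors2 samples higher. The wild-type values lie near the low end of the scale: sample 2 stood at the 28.0th percentile where 23.0% of its probes were at 0, so how far they are above background is not known and the size of the difference depends on it.

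The AT2G32040 probe stood at the 28.0th to 52.3rd percentile of its sample in wild type, with a median of 41.2, and at the 72.8th to 89.3rd in prors2, with a median of 85.0. The groups were apart on this scale also. In normalized log2 intensity, wild type had -3.56 ± 0.90 and prors2 had -0.60 ± 0.55 (SD, n = 6 each). The difference was 2.96 (SE 0.40), or 7.78-fold. In contrast to THIC, the wider spread lay in wild type, where the highest intensity was 6.42-fold the lowest, against 1.77-fold in prors2. With a pseudocount of 0.05 added before the log the difference was 1.99.

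AT3G58610 encodes ketol-acid reductoisomerase, which converts the product of acetolactate synthase in the synthesis of valine, leucine and isoleucine. Its deposited intensity in wild type had a lowest value of 0.277, a median of 0.324 and a highest value of 0.376. In prors2 the lowest was 0.243, the median 0.334 and the highest 0.432. The prors2 samples lay on both sides of the wild-type range, and the means were 0.329 ± 0.0394 and 0.332 ± 0.0716 (SD, n = 6 each).

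Its position within the sample was lower in prors2. The AT3G58610 probe stood at the 75.8th to 82.5th percentile in wild type, with a median of 77.4, and at the 37.0th to 62.1st in prors2, with a median of 52.2, without overlap. In normalized log2 intensity, wild type had -1.09 ± 0.19 and prors2 had -2.49 ± 0.40 (SD, n = 6 each), a difference of -1.40 (SE 0.20), or 2.64-fold. The intensity of this probe was thus close to equal in both groups as deposited, and lower in prors2 only relative to the other probes.

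FATB (AT1G08510) encodes the acyl-ACP thioesterase that releases saturated fatty acids, mainly palmitate, from the acyl carrier protein for export from the plastid. Its deposited intensity in wild type had a lowest value of 0.0383, a median of 0.154 and a highest value of 0.251. In prors2 the lowest was 0.122, the median 0.148 and the highest 0.212. All 6 prors2 values lay inside the wild-type range, which spanned 6.54-fold, while those of prors2 spanned 1.74-fold.

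The FATB probe stood at the 41.9th to 73.1st percentile in wild type, with a median of 64.2, and at the 19.9th to 34.5th in prors2, with a median of 32.1, without overlap. In normalized log2 intensity, wild type had -2.20 ± 0.77 and prors2 had -3.82 ± 0.57 (SD, n = 6 each). The difference was -1.62 (SE 0.37), or 3.07-fold. The normalized values did overlap, since wild-type sample 3 had -3.516 and prors2 samples 3, 5 and 6 had -3.514, -3.48 and -3.35.

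**Figure D1:**
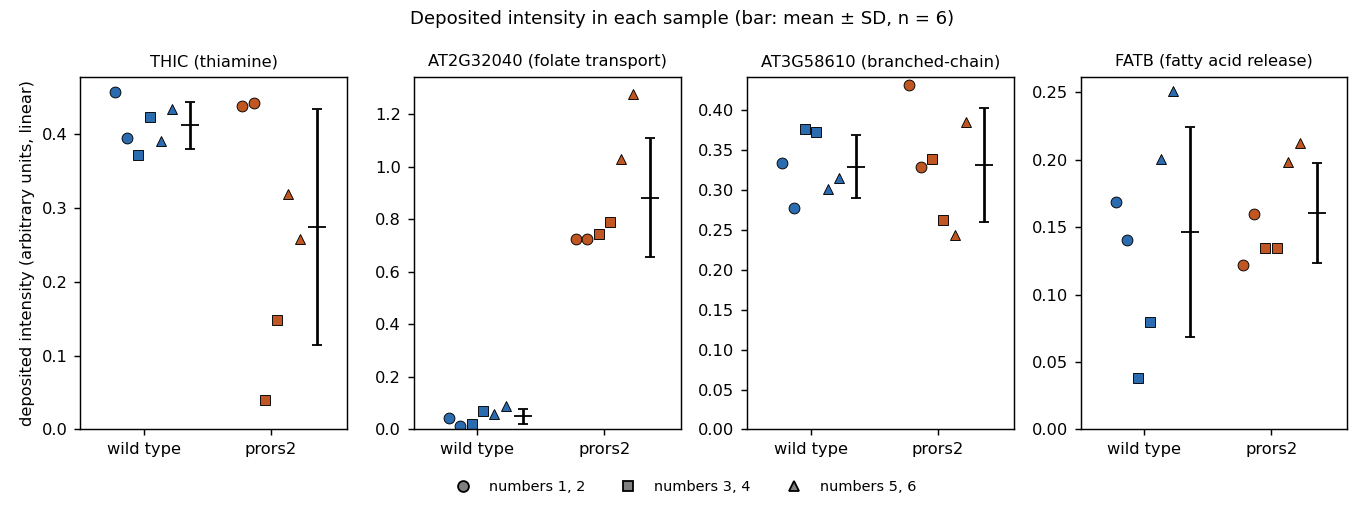
Deposited intensity (arbitrary units, linear axes from 0, a separate scale for each gene) of the 4 genes in the 6 wild-type and 6 prors2 samples; marker shapes give the sample numbers and the bar is the mean ± SD. AT2G32040 lies at or below 0.0879 in wild type and at or above 0.724 in prors2, while the groups of the other 3 genes overlap.

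**Figure D2:**
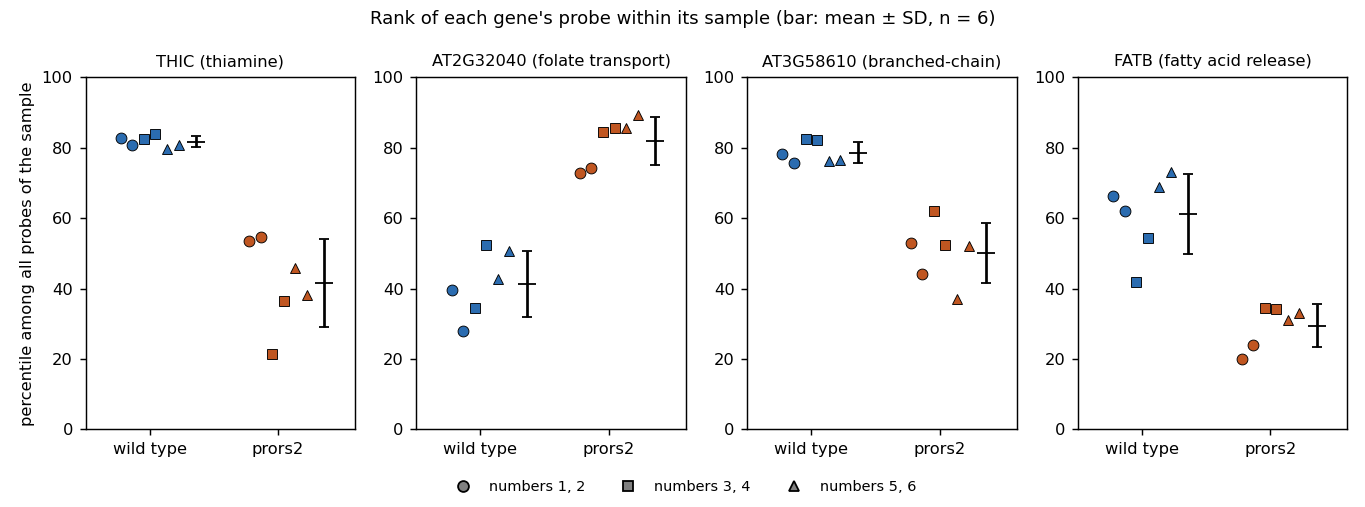
Percentile of each gene's probe among the 3439 probes of the same sample, with the mean ± SD (n = 6). THIC, AT3G58610 and FATB stand lower in prors2 and AT2G32040 stands higher, with no overlap between groups for any of the 4.

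By deposited intensity the groups did not overlap for 1 of the 4 genes, AT2G32040, which was higher, and 45.7% of all probes were higher without overlap and 2.53% lower. By percentile within the sample, THIC, AT3G58610 and FATB were lower without overlap, as were 22.8% of all probes, and AT2G32040 was higher without overlap, as were 12.2%. Since the genes were chosen with this comparison known, these counts are a description. Wild type had more probes at 0 (746 to 926, against 431 to 609 in prors2), and these raise the percentile of a dim probe above 0. The part of this in the percentile counts, and in the separation of FATB, was not tested. The median log2 difference over all 2684 tested features was 0.094.

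Among the 530 tested features with 1 named gene, THIC had the 6th lowest difference, FATB the 21st lowest, AT3G58610 the 32nd lowest and AT2G32040 the 17th highest. A difference of the size of THIC's or more was shown by 8.30% of these 530 features and one of the size of AT2G32040's or more by 3.40%. For FATB that share was 17.7% and for AT3G58610 25.7%. The differences of FATB and AT3G58610 are thus of a size that many named genes on this array showed.

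**Figure D3:**
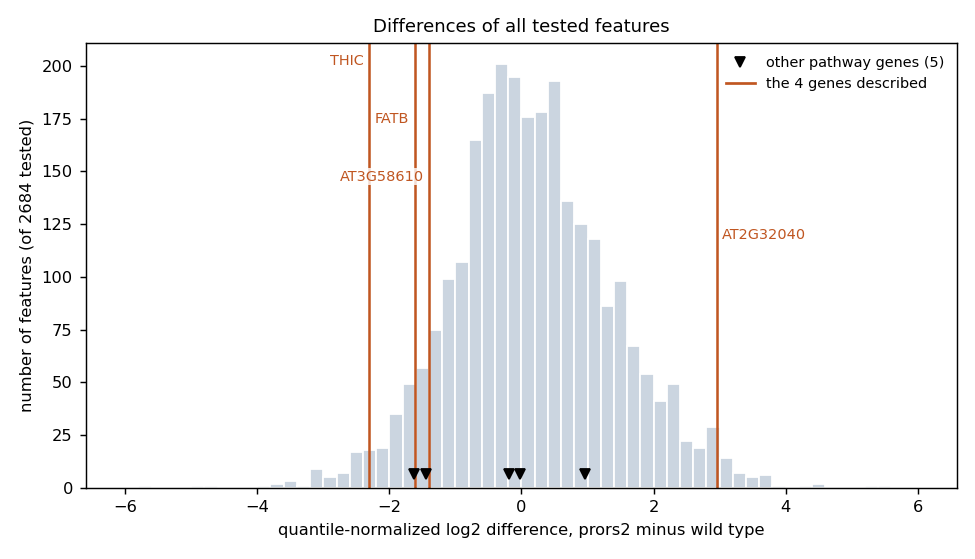
Quantile-normalized log2 difference (prors2 minus wild type) of the 2684 tested features as a histogram, with the 4 genes as lines and the 5 other measured genes of the pathways as triangles. THIC lies at -2.30, FATB at -1.62, AT3G58610 at -1.40 and AT2G32040 at 2.96.

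The size of the differences depended on the scale for all 4 genes. Without normalization, all tested features had a median difference of 1.49 on the log2 scale. On that scale AT2G32040 had a difference of 4.40 (standard error 0.43), FATB of 0.34 (0.40), AT3G58610 of -0.010 (0.17) and THIC of -0.94 (0.50). The values of FATB and AT3G58610 were smaller than their standard errors, and no direction is read from them on that scale. THIC was below 0 there, with overlapping groups. AT2G32040 was higher on both scales. With each sample centred on its median log2 value, the differences were 2.81 for AT2G32040, -1.25 for FATB, -1.60 for AT3G58610 and -2.53 for THIC, and the median of all features was -0.097.

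**Figure D4:**
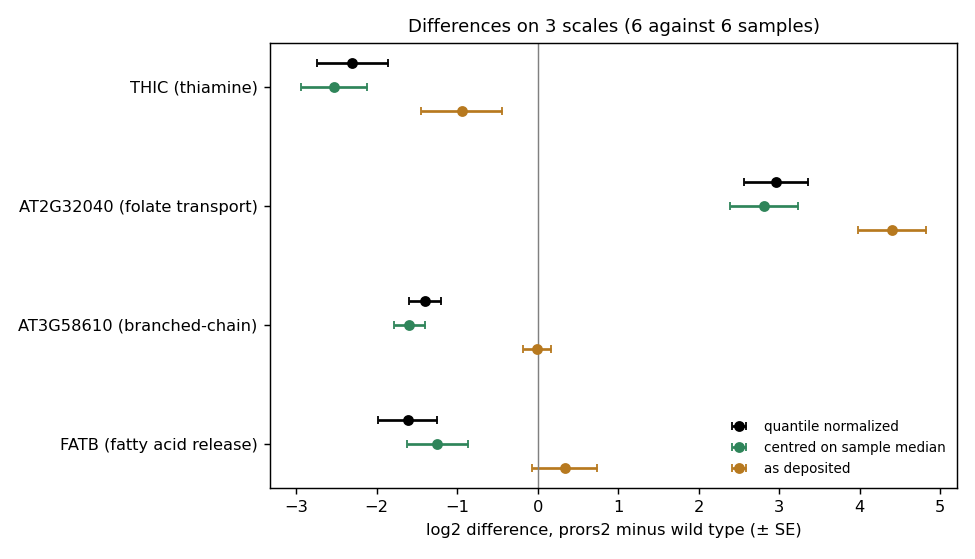
Log2 difference (prors2 minus wild type) with its standard error for the 4 genes after quantile normalization, after centring each sample on its median, and as deposited. The first 2 scales give near values, from -2.30 and -2.53 for THIC to 2.96 and 2.81 for AT2G32040, and as deposited AT3G58610 lies at -0.010 and FATB at 0.34.

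The log2 ratio of 2 genes within a sample does not depend on a scaling factor of that sample, though an added background would change it. The ratio of AT2G32040 to AT3G58610 was higher in prors2 by 4.41 on the log2 scale, and that of AT2G32040 to FATB by 4.06, without overlap of the groups in either. The ratio of THIC to AT2G32040 was lower in prors2, with a mean difference of -5.34, also without overlap. Among the other 3 genes the ratios overlapped between the groups. The mean difference was -0.93 for THIC to AT3G58610, -1.28 for THIC to FATB and -0.35 for AT3G58610 to FATB. The groups were thus apart in the ratios that include AT2G32040 and overlapped in those that do not. This restates the deposited difference of AT2G32040, a gene chosen on this comparison, and is no separate result. The share of ratios that are apart over all pairs of probes was not counted.

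Samples of consecutive number (1 and 2, 3 and 4, 5 and 6) lay close together for some of these genes, and whether they are separate plants or repeated readings is not stated. Over whole arrays these pairs were alike in probes at 0. The counts were 791 and 791, 926 and 916, and 755 and 746 in wild type. In prors2 they were 474 and 479, 606 and 609, and 441 and 431. The fit reported treats all samples of a group as separate. For AT2G32040 in prors2, the 2 samples of a pair differed by 0.079, 0.11 and 0.45 in normalized log2 intensity, while the pair means ranged over 1.15. In wild type the pairs of AT2G32040 differed by up to 1.59, so they were not alike there. The pair means of AT2G32040 had the same order in both groups, and so had those of AT3G58610. For THIC in prors2 the mean normalized log2 intensity of these pairs was -2.26, -4.36 and -2.84. The 2 samples of a pair differed there by 0.066, 1.93 and 0.38, so samples 3 and 4 were not alike. For FATB it was -1.96, -3.08 and -1.56 in wild type and -4.51, -3.53 and -3.41 in prors2. Pair means of AT3G58610 differed by at most 0.36 in wild type and 0.52 in prors2. Within its pairs in prors2 the samples differed by 0.45, 0.50 and 0.77, so the pairs were not closer than the pair means. For AT2G32040 the pair means were -4.18, -3.57 and -2.92 in wild type and -1.25, -0.45 and -0.100 in prors2.

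Taken 2 against 2 samples, the difference of THIC was -1.43 for numbers 1 and 2, -3.56 for 3 and 4 and -1.91 for 5 and 6. FATB had -2.55, -0.45 and -1.85 in the same order, and its value for numbers 3 and 4 was little larger than its standard error of 0.35. AT3G58610 had -1.35, -1.34 and -1.50, and AT2G32040 had 2.93, 3.13 and 2.82. The sets thus gave near values for AT3G58610 and AT2G32040, and unequal ones for THIC and FATB. The THIC value for numbers 3 and 4 had a standard error of 0.74. It includes prors2 sample 3, at -5.32 in normalized log2 intensity against -3.39 in sample 4. Without numbers 1 and 2, FATB had a difference of -1.17 (SE 0.44), and without numbers 3 and 4 one of -2.16 (SE 0.33).

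**Figure D5:**
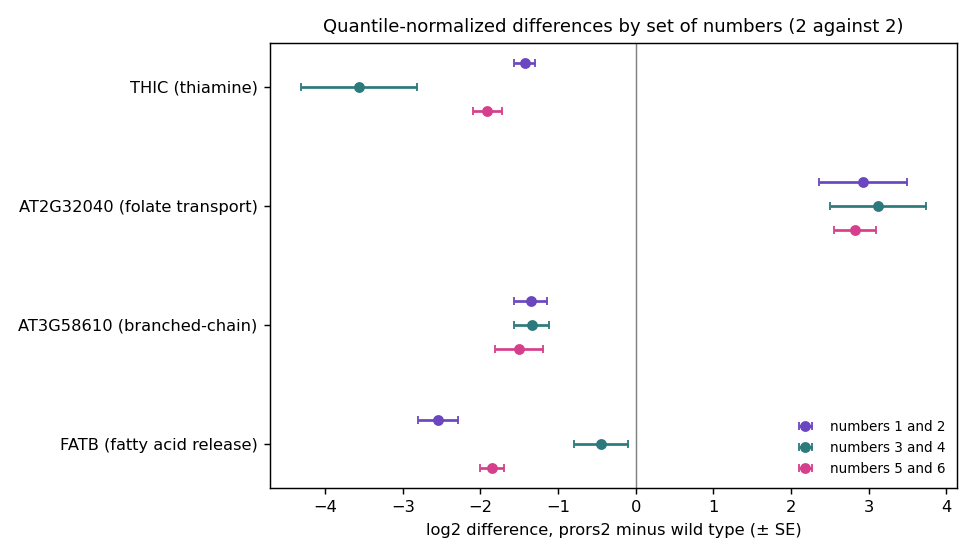
Quantile-normalized log2 difference (prors2 minus wild type, with the standard error of the fit over all features) of the 4 genes for each set of consecutive sample numbers, 2 against 2 samples. FATB ranges from -2.55 to -0.45 and THIC from -3.56 to -1.43, while AT3G58610 stays between -1.50 and -1.34 and AT2G32040 between 2.82 and 3.13.

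The other genes of these pathways were sparsely represented. Of 199 further loci listed for thiamine (7), folate (36), branched-chain amino acids (23), fatty acids and glycerolipids (43), other cofactors (33) and other plastid amino acids (57), 5 had a single-gene probe, and all 5 were tested. After quantile normalization 1 was called higher, 1 lower and 3 neither (limma, adjusted p under 0.05), and their median log2 difference was -0.19. Over all 2684 tested features 45.6% were called, 25.0% higher and 20.6% lower, and over the 530 with 1 named gene 48.5%, 31.5% higher and 17.0% lower. Thiamine, folate and other cofactors had none of these 5 genes, so no other listed gene of the thiamine and folate routes was measured by a probe of its own.

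In branched-chain synthesis the gene measured beside ketol-acid reductoisomerase was AT3G23940, which encodes dihydroxyacid dehydratase, the enzyme of the next step. Its deposited intensity was between 0.0173 and 0.163 in wild type, with a median of 0.0734, and between 0.00131 and 0.325 in prors2, with a median of 0.184. The groups overlapped. AT3G23940 differed by -1.45 on the log2 scale (SE 1.09; limma, adjusted p = 0.295), and -0.33 without prors2 sample 3, which held the lowest value of the group, as it did for THIC.

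In fatty acid synthesis, AT1G24360 encodes the ketoacyl-ACP reductase that takes part in each round of chain elongation. As deposited, wild type had 0.621 ± 0.0997 and prors2 had 0.940 ± 0.155 (SD, n = 6 each). After quantile normalization AT1G24360 differed by -0.024 (SE 0.14; limma, adjusted p = 0.904), but with median centring it was -0.99 (adjusted p = 7.9e-05) and as deposited 0.60 (adjusted p = 0.00621). AT5G16230, of the acyl-ACP desaturase family that puts a double bond into stearate, had 0 in wild-type sample 1, at most 0.0422 in the other wild-type samples and between 0.0944 and 0.137 in prors2. After normalization AT5G16230 differed by -0.19 (SE 0.39; limma, adjusted p = 0.711), with the value at 0 left out, and as deposited it had 2.23 (adjusted p = 4.2e-04). Neither gene was called after quantile normalization.

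Among other plastid amino acid genes, AT-HF (AT4G26900), which encodes imidazole glycerol phosphate synthase of histidine synthesis, rose by 0.97 on the log2 scale (SE 0.24; limma, adjusted p = 0.00606). Wild type had a deposited intensity of 0.113 ± 0.0430 and prors2 of 0.577 ± 0.0600 (SD, n = 6 each), and these did not overlap, as was so for 45.7% of all probes. By percentile within the sample the groups of AT-HF overlapped, from 45.3 to 71.6 in wild type and from 61.5 to 78.5 in prors2. CBL (AT3G57050), the cystathionine beta-lyase of methionine synthesis, fell by 1.62 (SE 0.55; limma, adjusted p = 0.0304). Its deposited intensity was between 0.103 and 0.274 in wild type. In prors2 CBL was at 0 in sample 3, at 0.0278 in sample 4 and between 0.204 and 0.393 in the rest. The value at 0 was left out of the fit.

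Both calls were lost when pairs were averaged (limma, adjusted p = 0.0907 for AT-HF and 0.113 for CBL). CBL was also not called without wild-type sample 4 or 6 or without prors2 sample 1 or 2 (limma, adjusted p from 0.0546 to 0.0596), and without prors2 sample 4 its difference was -1.08. As deposited, CBL had a difference of 0.23 (adjusted p = 0.746).

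Of the 367 other named genes above 0 in all 12 samples, the 2 closest to each described gene were taken by the root mean square (RMS) difference of mean-centred normalized log2 values over the 12 samples. For THIC these were AT3G59980 (RMS 0.46) and AT1G15140 (0.56), where the median over the 367 genes was 1.47. For AT2G32040 they were AT5G40030 (0.60) and AT2G30320 (0.84), against a median of 1.68. For AT3G58610 they were AT1G01500 (0.25) and AT1G54500 (0.26), the latter a rubredoxin-type gene, against a median of 0.93. For FATB they were AT5G05400 (0.24), of the leucine-rich repeat disease resistance type, and AT1G64430 (0.40), against a median of 1.14. The likeness includes the difference between the groups: log2 differences were -1.63 and -1.72 for the genes like THIC, 2.29 and 2.05 for those like AT2G32040, -1.60 and -1.28 for those like AT3G58610, and -1.91 and -1.35 for those like FATB.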

How the data were processed

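Arrays of 12 samples (6 WT2_dark, 6 prors2_dark, grouped by title) were used. The values are the deposited intensities of 3439 probes; the sources used here do not say how the authors made them. The number of arrays limits the precision. The platform annotation lists 1 gene for 692 probes (690 matched in the TAIR 10.1 gene table), several for 870 and none for 1877. Values above 0 were taken to log2 and quantile-normalized with zeros as missing, and probes of a gene averaged. Features with at least 3 values in each group were fitted in limma 3.58.1 (lmFit, eBayes; R 4.3.3), 2-sided, with Benjamini-Hochberg adjustment over the 2684 tested and a threshold of 0.05. The fit was run on simulated data with independent normal errors, without alike pairs of samples and without a group shift in the dim range. That run therefore does not show how the p-values behave on these data. The labels do not say whether samples of a group came from separate plants, so p-values rest on a spread between samples that may be only technical. The 4 genes, the pathway lists and the alternatives were chosen with earlier results of these data known. Named are the 4 genes, every listed pathway gene with a single-gene probe, and the 2 genes most like each of the 4. No sequences are shown, since none was used here.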

Additional observations from a re-analysis of the deposited data

Results flagged for a closer look

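Each group of 6 normalized log2 values of the 9 named pathway genes was searched for a sample standing apart, by the gap to its nearest neighbour over the whole range of the group. Of 16 groups examined 2 had one, where chance gives about 1 in 20, and 2 further groups with a value at 0 were not examined. Both are sample 3 of prors2, so they are 1 array and not independent, and the ratio for THIC (0.6251) passed its critical value very narrowly. It had -5.32 for THIC, where the other prors2 samples lay between -3.39 and -2.23. It had -10.12 for AT3G23940, where the others lay between -4.41 and -2.79. The same sample was at 0 for CBL, which was among the groups not examined.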

How the results depend on the processing

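Differences are log2, prors2 minus wild type. As deposited, THIC had -0.94, AT2G32040 4.40, AT3G58610 -0.010 and FATB 0.34, with 2013 features called (1869 higher, 144 lower, or 92.8% higher against 41.9% with median centring, where 905 were lower). AT2G32040 had 1.99 with a pseudocount. For numbers 1 and 2 alone THIC had -1.43 and FATB -2.55, and for 3 and 4 alone -3.56 and -0.45. With pairs as a random block 671 of 2684 tested features were called (358 higher, 313 lower). With pairs averaged 515 of 2459 tested were called (307 and 208), and without numbers 5 and 6 444 were higher. Leaving out single samples gave -2.55 to -1.90 for THIC, 2.63 to 3.18 for AT2G32040, -1.53 to -1.31 for AT3G58610, -1.85 to -1.44 for FATB, 1122 to 1195 features called (604 to 653 higher, 506 to 542 lower) and 1 to 2 other pathway genes called.

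Of the other pathway genes 2 were called in the fit reported. This was 1 over features above 0 in all samples, 1 with the replicate block, 1 without numbers 1 and 2 and 1 without numbers 3 and 4. It was 0 with pairs as a random block, with pairs averaged, and for numbers 3 and 4 or 5 and 6 alone. CBL, at 0 in prors2 sample 3, was not tested over features above 0 in all samples or for numbers 3 and 4 alone. Those counts therefore lack CBL and do not show a lost call for it. Signs turned as deposited for AT3G23940 (0.49), AT1G24360 (0.60), AT5G16230 (2.23) and CBL (0.23). They also turned for AT3G23940 with numbers 1 and 2 alone (0.11), and for AT5G16230 with median centring (0.64), pairs averaged (0.060) and without numbers 5 and 6 (0.20). Without single samples AT1G24360 ranged from -0.062 to 0.016 and AT5G16230 from -0.57 to 0.0090. The cause was not tested.

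WT2 and prors2 samples of the same number follow each other in the series, and the labels do not say whether they are paired. The correlation of their deviations was 0.053 to 0.16 over 1940 features, and 4 of 6 wild-type samples were closest to the prors2 sample of their own number. Numbers 3 and 4 had the most zeros in both groups, and with a fixed block for sets of 2 neighbouring numbers 1456 features were called (812 higher, 644 lower). With the number as a replicate block 1209 features were called against 1225. Each number has 1 sample per group and the 4 genes have a value in every sample. The block therefore cannot change their differences (THIC -2.30, AT2G32040 2.96, AT3G58610 -1.40, FATB -1.62). It can change their standard errors, which were 0.41 for THIC, 0.27 for AT2G32040, 0.17 for AT3G58610 and 0.37 for FATB. In the fit reported they were 0.44, 0.40, 0.20 and 0.37.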
